A study of Mus musculus with 6 samples.

Results

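The genes described here are Nlrc5 and 9 genes of MHC class I antigen presentation, 10 of the 54532 genes in the deposited table. They were taken by name: the class I heavy chain genes H2-K1 and H2-D1, the light chain gene B2m, the peptide transporter genes Tap1 and Tap2, the loading factor gene Tapbp, and the immunoproteasome genes Psmb8, Psmb9 and Psmb10. The set was chosen by the FPKM of Nlrc5, whose level was higher in Tshr-/- in an earlier analysis of these values, so the genotype differences of all 10 genes are given as a description. Calls by limma over all genes are given as background, and nothing is read from those of the 10. The libraries came from CD11b-positive cells of tibial bone marrow of mice aged 12 weeks. CD11b is an integrin chain carried by neutrophils, monocytes, macrophages and osteoclast precursors. Of the 6 libraries, 3 are titled Tshr-/- (a label for genotype calls the same animals a Tshr knockdown) and 3 Tshr+/+ (wild type). The product of Tshr is the thyrotropin receptor. A treatment label shared by both genotypes names osteoclast differentiation with no time. Which part of Tshr is altered is not in the labels.

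NLRC5 is a protein of the NLR family that works in the nucleus as a coactivator of class I genes. It does not bind DNA alone: the RFX, CREB/ATF and NF-Y factors assemble on the X and Y boxes of class I promoters and recruit it there, much as they recruit its relative CIITA to class II promoters. Interferon gamma induces Nlrc5. Class I molecules show peptides of cytosolic proteins to CD8 T cells. The immunoproteasome cuts these peptides, TAP carries them into the endoplasmic reticulum, and tapasin holds the empty class I molecule there for loading. H2-K1, H2-D1, B2m, Tap1 and Psmb9 are among the described targets of NLRC5, most strongly in lymphocytes.

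Letters of the X2 and Y box cores stood upstream of the class I chains. RefSeq windows from 250 bases before to 50 bases after the annotated start (GRCm38.p6) were matched by symbol for 8 of the 10 genes, all but Nlrc5 and Tap2. The windows of the 3 class I chain genes are printed 5′ to 3′ because each held the X2 core TGACG and the Y box core ATTGG with 20 bases between them. Both cores are in capitals.
H2-K1 (chr17:34000298-34000597, minus strand): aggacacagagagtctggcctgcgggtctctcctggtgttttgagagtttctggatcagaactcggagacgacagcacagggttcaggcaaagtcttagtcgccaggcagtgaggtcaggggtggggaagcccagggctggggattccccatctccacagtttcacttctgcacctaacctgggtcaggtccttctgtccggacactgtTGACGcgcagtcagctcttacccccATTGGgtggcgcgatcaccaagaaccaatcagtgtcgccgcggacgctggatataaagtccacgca
H2-D1 (chr17:35262844-35263143, plus strand): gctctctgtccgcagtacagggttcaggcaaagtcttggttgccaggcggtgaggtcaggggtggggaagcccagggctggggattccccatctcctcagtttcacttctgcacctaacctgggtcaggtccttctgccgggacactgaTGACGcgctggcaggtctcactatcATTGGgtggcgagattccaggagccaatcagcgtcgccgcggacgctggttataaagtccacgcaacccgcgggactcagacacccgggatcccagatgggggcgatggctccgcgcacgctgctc
B2m (chr2:122147437-122147736, plus strand): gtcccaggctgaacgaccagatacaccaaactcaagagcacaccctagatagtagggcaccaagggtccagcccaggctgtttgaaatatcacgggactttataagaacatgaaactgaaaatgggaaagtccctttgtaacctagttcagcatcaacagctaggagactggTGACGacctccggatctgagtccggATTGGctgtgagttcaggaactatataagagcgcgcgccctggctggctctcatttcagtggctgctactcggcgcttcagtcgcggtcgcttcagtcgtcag

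The first base of the pair lay 41 bases before the start in H2-K1, 101 in H2-D1 and 78 in B2m. H2-K1 has a further RefSeq start, and its window holds the same pair. On either strand, TGACG occurred in 20.8% of 32851 windows and ATTGG in 37.4%, but the pair at a gap of 20 bases in 0.0944%, or 31 windows. Among the other 5 matched genes the pair was not in the window, which says only that these letters are not there. A further class I heavy chain gene, H2-M3, also held it. The motif was chosen after the sequences had been read. The interferon regulatory factor core AANNGAAA was present in the windows of H2-K1, H2-D1 and B2m, and in 23.9% of all windows.

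Tap1 and Psmb9 lie head to head on chromosome 17, and their windows overlap over 275 bases. That shared stretch is printed because these genes had the most similar profiles of the set, as described further on. The X2 core and the Y box core on the opposite strand (CCAAT) are in capitals.
Tap1 and Psmb9 (chr17:34187306-34187580, plus strand): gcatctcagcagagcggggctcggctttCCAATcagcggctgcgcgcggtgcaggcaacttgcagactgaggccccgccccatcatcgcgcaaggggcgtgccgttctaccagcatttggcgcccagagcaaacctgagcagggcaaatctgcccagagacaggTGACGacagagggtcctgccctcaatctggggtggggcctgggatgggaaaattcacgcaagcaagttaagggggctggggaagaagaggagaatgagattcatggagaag

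Of the 10 genes, 7 lie on chromosome 17 in the files (GRCm38), and Psmb9, Tap1, Psmb8 and Tap2 follow each other within 34334 bases. Nlrc5 (ENSMUSG00000074151) lies on chromosome 8 from 94434356 to 94527272, plus strand, and Psmb10 also lies on chromosome 8. The deposited gene models of Tap1 and Psmb9 share 212 bases on opposite strands, and the model of B2m lies within that of Patl2 on the opposite strand. Strand use at that step was not given in the sources used here, so fragments of such neighbours cannot be told apart. H2-K1, H2-D1 and the H2-Q genes are near-copies of each other in sequence, which leaves the split of fragments among them, and so their separate values, uncertain.

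Gene totals ran from 14698126 to 17976477 fragments per library. Values are FPKM, fragments per kilobase of gene and per unit of sequencing depth, as the authors scaled them. Tshr was counted with 40, 25 and 1 fragments in the libraries labelled Tshr-/- and with 55, 55 and 45 in Tshr+/+. In FPKM, Tshr-/- 1 (0.414) lay within the Tshr+/+ range of 0.405 to 0.552, and Tshr-/- 2 (0.297) lay below it. These counts cast doubt on the labels of Tshr-/- 1 and 2. They do not settle the genotype, as the altered part of Tshr is not in the labels. Genotype differences of the 10 genes are given with and without Tshr-/- 1 and 2. Slopes, ratios and profile distances are given only with both of these libraries included, apart from slopes with 1 library left out at a time. The value of each library is given beside them. The gate was visible in the integrin genes Itgam and Itgb2, whose summed level was 596 to 765 FPKM in Tshr-/- and 649 to 758 FPKM in Tshr+/+. Neutrophil genes were the most abundant of the marker lists, with sums of 88008 to 134368 FPKM in Tshr-/- and 108216 to 132525 FPKM in Tshr+/+. B cell markers summed to 249 to 434 FPKM in Tshr-/- and 372 to 648 FPKM in Tshr+/+. Most of that sum was the antibody gene Igkc, with 164 to 324 FPKM in Tshr-/- and 316 to 561 FPKM in Tshr+/+. Ighm of the same list went the other way, with means of 86.8 FPKM in Tshr-/- and 60.9 FPKM in Tshr+/+ and overlapping groups. The sum is thus no measure of B cell number. In bulk RNA, fewer cells of a type and less RNA per cell cannot be told apart.

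Nlrc5 was the one gene of the set whose genotypes did not overlap. It had 6.10, 4.90 and 5.28 FPKM in the libraries labelled Tshr-/-, against 2.94, 3.33 and 3.33 FPKM in Tshr+/+. Every Tshr-/- library stood above every Tshr+/+ library, with means of 5.43 ± 0.614 FPKM for Tshr-/- and 3.20 ± 0.226 FPKM for Tshr+/+ (SD, n = 3 each). The log2 fold change was 0.61 ± 0.12 (SE) on the log2(FPKM + 1) scale. These values rest on 584 to 904 fragments in Tshr-/- and 425 to 523 in Tshr+/+. The exact 95% Poisson intervals, which cover counting error only, were 4.51 to 5.32 FPKM in the lowest Tshr-/- library and 3.05 to 3.63 FPKM in the highest Tshr+/+ library. Within Tshr+/+ the 3 intervals overlapped, and differences among these libraries were not tested. Within Tshr-/- those of library 1 (5.70 to 6.53 FPKM) and library 2 (4.51 to 5.32 FPKM) did not overlap. Without the libraries labelled Tshr-/- 1 and 2 the log2 fold change was 0.58.

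**Figure D1:**
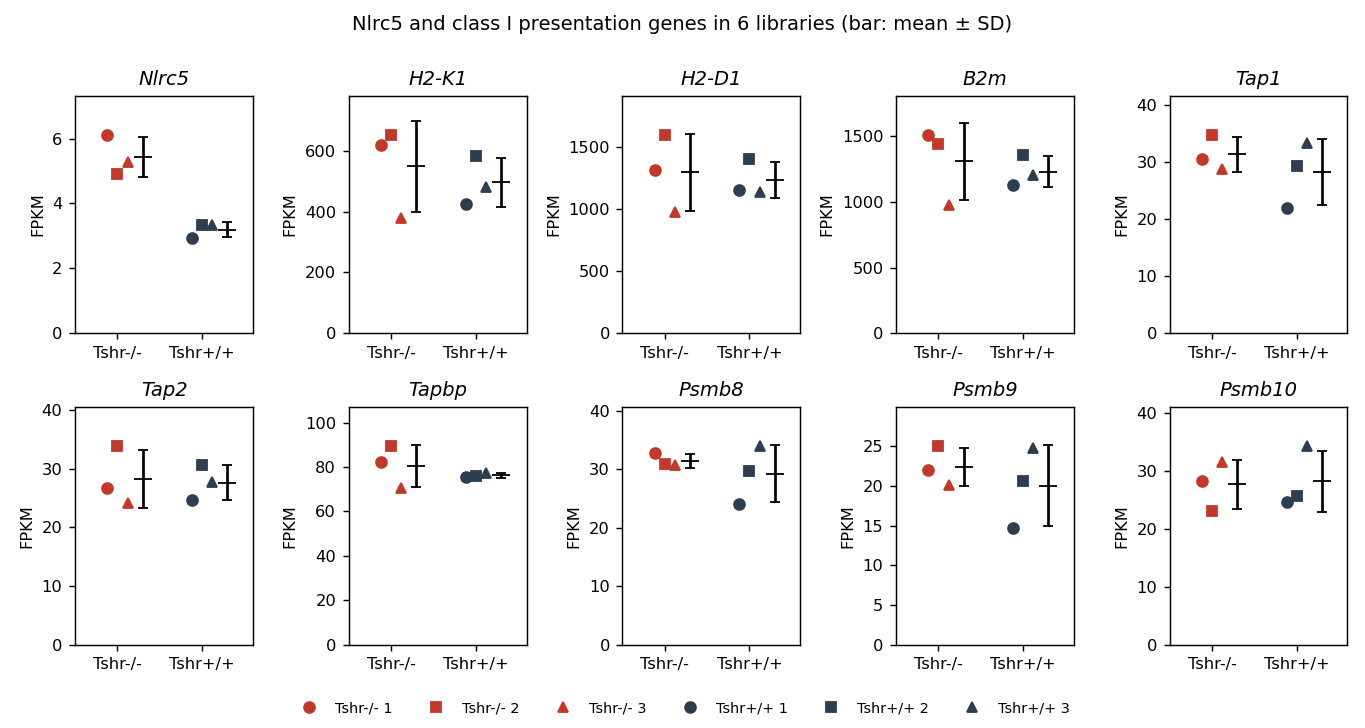
Each panel plots 1 gene, with FPKM on the vertical axis and the 3 libraries of each genotype as points whose shape gives the library number; bars are mean ± SD. Nlrc5 alone has separate groups, with 4.90 to 6.10 FPKM in Tshr-/- and 2.94 to 3.33 FPKM in Tshr+/+.

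Across all genes, limma on log2(FPKM + 1) called no gene. Of 10913 genes tested, those with at least 1 FPKM in at least 3 libraries, 0% were called higher and 0% lower in Tshr-/- at an adjusted p under 0.05, and 317 (2.9%) had an unadjusted p under 0.05. All 10 genes described here were among those tested and 0 of 10 were called. With limma's voom on whole fragments the count over all genes was also 0, whereas array weights, which give less weight to libraries that stand apart, called 13 higher and 11 lower, Nlrc5 among them. All Tshr-/- values lay above all Tshr+/+ values in 3.23% of tested genes and below in 3.55%. Nlrc5 was 1 of 10 genes with such a separation and was chosen for its difference, so nothing is read from its separation or its call.

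The class I chains were far more abundant than their activator and overlapped between the genotypes. B2m, the light chain shared by all class I molecules, had 1506, 1442 and 973 FPKM in Tshr-/-, against 1127, 1355 and 1203 FPKM in Tshr+/+. The heavy chain gene H2-D1 had 1313, 1593 and 979 FPKM in Tshr-/-, against 1156, 1402 and 1138 FPKM in Tshr+/+. The heavy chain gene H2-K1 had 617, 651 and 377 FPKM in Tshr-/-, against 424, 584 and 481 FPKM in Tshr+/+. In all 3 genes the library labelled Tshr-/- 3 was the lowest of the 6 and Tshr-/- 2 or Tshr-/- 1 the highest, so the Tshr-/- libraries enclosed the Tshr+/+ values. The log2 fold changes were 0.12 ± 0.24 (SE) for H2-K1, 0.07 ± 0.20 (SE) for B2m and 0.05 ± 0.21 (SE) for H2-D1. Their direction rests on single libraries. Without Tshr-/- 2 all 3 turned, to -0.03, -0.02 and -0.11, B2m turned without Tshr-/- 1 (-0.05), H2-D1 turned without Tshr+/+ 3 (-0.0035), and without both Tshr-/- 1 and 2 they were -0.38, -0.33 and -0.33.

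Within a library, the class I chains kept near-constant proportions. H2-K1 stood at 0.410, 0.452 and 0.388 times B2m in Tshr-/-, against 0.376, 0.431 and 0.400 times B2m in Tshr+/+. H2-D1 stood at 0.872 to 1.11 times B2m in Tshr-/- and at 0.946 to 1.03 times B2m in Tshr+/+. The ratio of the highest to the lowest library was 1.73 for H2-K1 alone and 1.201 for H2-K1 over B2m. Levels per length thus placed B2m and H2-D1 side by side, overlapping in both genotypes, and H2-K1 below them without overlap.

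Averaged over their lists, neutrophil markers and class I chains were highest and lowest in the same libraries, although B2m alone was highest in Tshr-/- 1. Set against its Tshr+/+ mean, the averaged log2 value of the 3 chain genes was 0.24, 0.34 and -0.35 in Tshr-/- 1, 2 and 3, against -0.14, 0.19 and -0.06 in Tshr+/+. The mean of 8 neutrophil markers was 0.06, 0.26 and -0.37 in Tshr-/-, against -0.08, 0.11 and -0.03 in Tshr+/+. Both peaked in Tshr-/- 2, with Tshr-/- 3 the lowest of the 6. The match is not particular to neutrophil markers. The mean of the CD11b gate genes Itgam and Itgb2 also peaked in Tshr-/- 2 (0.15) and was lowest in Tshr-/- 3 (-0.31). The mean of 5 monocyte markers went the other way, with -0.32 in Tshr-/- 2 and 0.61 in Tshr-/- 3. The most abundant of them, Ly6c2, did not, with 416 FPKM in Tshr-/- 2 and 378 FPKM in Tshr-/- 3. Neutrophil markers were also mixed. Cxcr2 was highest in Tshr+/+ 3 (139 FPKM) and lowest in Tshr+/+ 1 (74.1 FPKM), and Mmp8 was highest in Tshr-/- 1 (905 FPKM). The part of neutrophil content in the class I values was not tested, nor was that of the scaling of each library.

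Peptide loading genes stood at a middle level. Tapbp, which encodes tapasin, had 82.1, 89.3 and 70.5 FPKM in Tshr-/-, against 75.5, 75.8 and 77.3 FPKM in Tshr+/+. The transporter gene Tap1 had 30.6, 34.8 and 28.9 FPKM in Tshr-/-, against 21.97, 29.3 and 33.4 FPKM in Tshr+/+. Its partner Tap2 had 26.8, 33.8 and 24.2 FPKM in Tshr-/-, against 24.6, 30.7 and 27.7 FPKM in Tshr+/+. The genotypes overlapped in each of them. Tapbp differed little among the Tshr+/+ libraries and was highest in Tshr-/- 2 and lowest in Tshr-/- 3. The log2 fold changes were 0.17 ± 0.17 (SE) for Tap1, 0.07 ± 0.12 (SE) for Tapbp and 0.02 ± 0.15 (SE) for Tap2. Without Tshr+/+ 1, the library with the lowest Tap1, the value for Tap1 was 0.0011. Without Tshr-/- 2 the values turned to -0.11 for Tap2 and -0.0017 for Tapbp. Without the libraries labelled Tshr-/- 1 and 2 they were -0.18 for Tap2, -0.11 for Tapbp and 0.05 for Tap1. With array weights Tap2 turned to -0.08 and H2-D1 to -0.02.

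The immunoproteasome genes encode the catalytic subunits that replace the constitutive ones when cells meet interferon. Psmb8 had 32.8, 30.8 and 30.7 FPKM in Tshr-/-, against 24.1, 29.6 and 33.9 FPKM in Tshr+/+. Psmb9 had 22.1, 24.97 and 20.1 FPKM in Tshr-/-, against 14.7, 20.6 and 24.8 FPKM in Tshr+/+. Psmb10 had 28.2, 23.01 and 31.5 FPKM in Tshr-/-, against 24.5, 25.6 and 34.2 FPKM in Tshr+/+. All 3 overlapped between the genotypes. In Tshr+/+ library 1 was the lowest and library 3 the highest for each, so that the Tshr+/+ libraries spanned a wider range than Tshr-/- in Psmb8 and Psmb9. The log2 fold changes were 0.18 ± 0.19 (SE) for Psmb9, 0.12 ± 0.14 (SE) for Psmb8 and -0.02 ± 0.17 (SE) for Psmb10. Of the 10 genes, Psmb10 was the one with a value below 0, but it kept that sign in 11 of 19 alternatives and stood above 0 with equal totals (0.028), quantile scaling (0.0061), voom (0.025) and array weights (0.11). Without Tshr+/+ 1 the values turned to -0.019 for Psmb9 and -0.010 for Psmb8, and Psmb10 ran from -0.12 to 0.12 with 1 library left out. Without the libraries labelled Tshr-/- 1 and 2 the values were 0.04 for Psmb9, 0.08 for Psmb8 and 0.18 for Psmb10. The ranges of the TAP and immunoproteasome genes overlapped, but Psmb9 stood below Tap1, Tap2 and Psmb8 in every library.

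**Figure D2:**
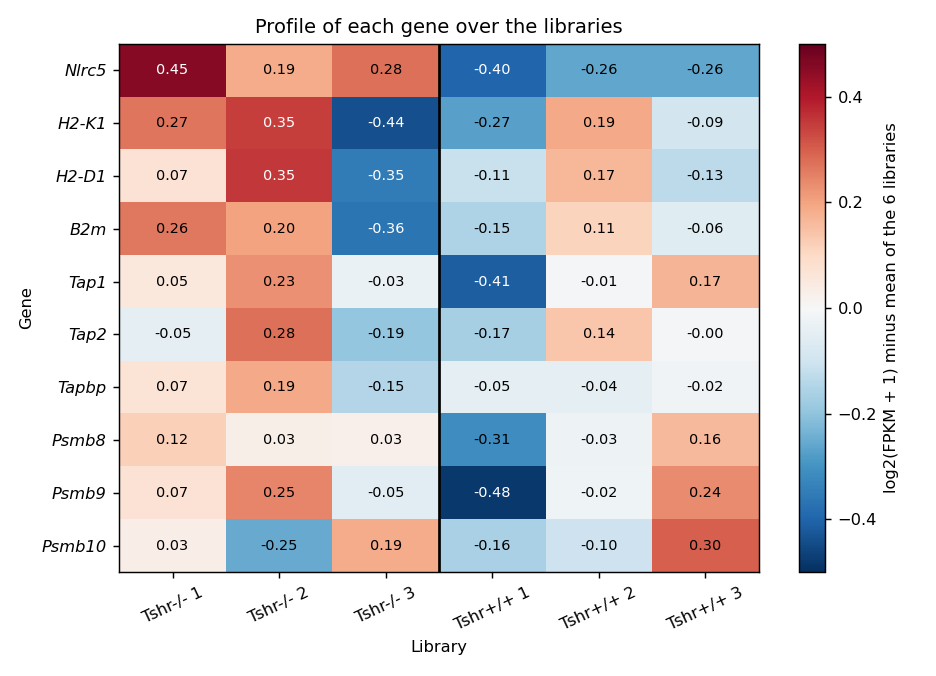
Colour and number give log2(FPKM + 1) minus the mean of the 6 libraries for each gene (rows) and library (columns, Tshr-/- left of the line). Nlrc5 is above its mean in all 3 Tshr-/- libraries, H2-K1, H2-D1 and B2m are lowest in Tshr-/- 3, and Tap1 and Psmb9 are lowest in Tshr+/+ 1.

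Of the 9 class I genes beside Nlrc5, 8 lay above 0 in log2 fold change, against 47.1% of all tested genes. Their median was 0.07, and that of all tested genes -0.01. The 9 genes share libraries and some share promoters, so their signs are not independent. The median turned to -0.11 without the libraries labelled Tshr-/- 1 and 2 and was 0.22 without Tshr-/- 3. It was -0.0017 without Tshr-/- 2 and 0.0011 without Tshr+/+ 1.

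**Figure D3:**
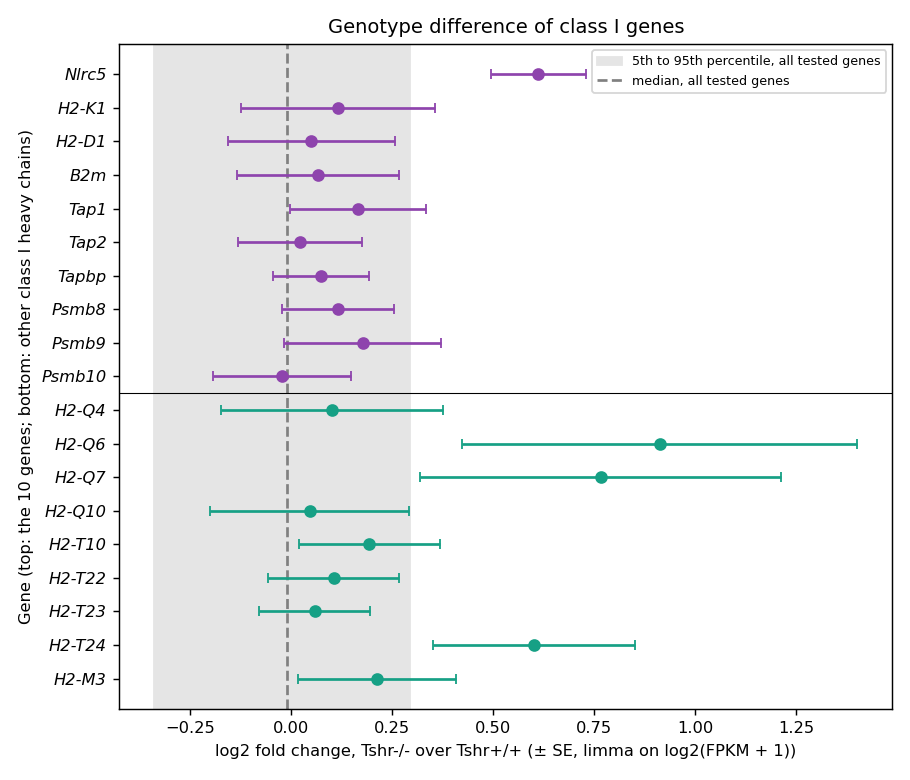
Points are log2 fold changes of Tshr-/- over Tshr+/+ with SE bars from limma, for the 10 genes (top) and the other tested class I heavy chain genes (bottom). The grey band spans the 5th to 95th percentile of all tested genes, -0.34 to 0.29, and Nlrc5 at 0.61 lies outside it while the 9 class I genes beside it lie inside.

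Whether class I genes follow Nlrc5 from library to library was asked within each genotype. The Nlrc5 values fell into 2 clusters, with a gap of 0.45 on the log2 scale between the genotypes and at most 0.18 within one, so no correlation pooled over the 6 libraries is given as an answer to this question. Instead, limma fitted for every other gene the change in log2(FPKM + 1) per unit of log2(FPKM + 1) of Nlrc5, with genotype as a term. This slope uses deviations from the genotype means, which the genotype difference does not use. The added pseudocount compresses the low values of Nlrc5 more than those of the abundant genes. By that effect alone, a gene in exact proportion to Nlrc5 would have a slope somewhat above 1. Counting error in Nlrc5 pulls slopes the other way, towards 0, and the fit takes Nlrc5 as free of error. Its counting SD was 0.048 to 0.070 on the log2 scale before the pseudocount. The SD of its log2(FPKM + 1) was 0.136 within Tshr-/- and 0.079 within Tshr+/+.

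No class I gene had a slope past the threshold, and each slope had a wide interval. The slopes were 0.83 ± 1.42 (SE) for H2-K1, 0.85 ± 1.18 for B2m and -0.19 ± 1.27 for H2-D1. They were 0.53 ± 1.01 for Tap1, -0.27 ± 0.93 for Tap2 and -0.12 ± 0.73 for Tapbp. The immunoproteasome genes had slopes of 0.97 ± 0.76 for Psmb8, 0.75 ± 1.14 for Psmb9 and 1.07 ± 0.95 for Psmb10. The 95% intervals ran from -1.93 to 1.68 for Tapbp, the narrowest, from -0.89 to 2.84 for Psmb8 and from -2.66 to 4.32 for H2-K1, the widest, and each of the 9 included both 0 and 1. The adjusted p was 0.9999 for each of the 9 (limma, Benjamini-Hochberg over 10912 genes). Over all genes 0% were called with a positive and 0% with a negative slope, and 137 genes (1.26%) had an unadjusted p under 0.05.

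Slopes were above 0 in 6 of the 9 genes, against 47.2% of all tested genes. Their median was 0.75, against -0.04 over all tested genes. It turned to -0.21 without Tshr+/+ 1, was 0.02 without Tshr-/- 1 and reached 1.74 without Tshr-/- 2. It was 0.17 with equal totals, 0.18 with voom and 0.17 with no genotype term. Slopes above 0 were not particular to these 9 genes. They were found in 20 of 20 interferon response genes (median 1.09) and 8 of 9 other class I heavy chain genes (0.84). Of 11 other genes of the proteasome core, 10 had one (median 0.40). Fewer had one among interferon gamma signalling genes, 4 of 9 (median -0.15), and class I-like genes outside the complex, 1 of 3 (-0.23). The range of Nlrc5 within a genotype was small: its deviations ran from -0.12 to 0.15 in Tshr-/- and from -0.09 to 0.05 in Tshr+/+.

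**Figure D4:**
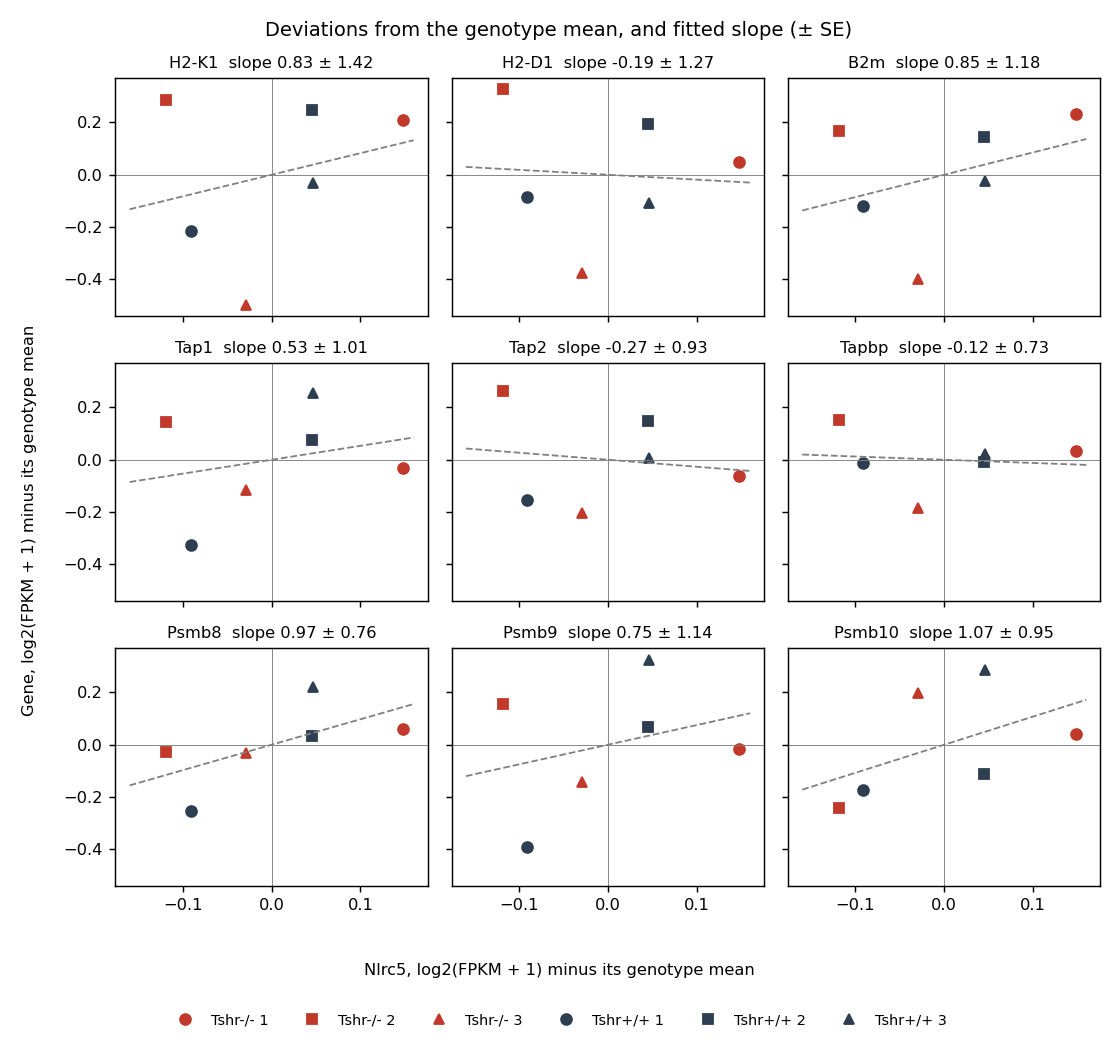
Each panel plots 1 gene against Nlrc5, both as log2(FPKM + 1) minus the mean of the genotype, with 1 point per library and the fitted slope as a dashed line. The points scatter widely around lines whose slopes run from -0.27 to 1.07.

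Side by side, the order of libraries differed between the activator and the chains. Nlrc5 ran from Tshr-/- 1 down through Tshr-/- 3 and Tshr-/- 2 to Tshr+/+ 3, 2 and 1. H2-K1 and B2m had Tshr-/- 3, the second highest library for Nlrc5, in last place. Nlrc5 per 1000 units of H2-K1 was 9.89, 7.53 and 14.0 in Tshr-/-, against 6.93, 5.70 and 6.92 in Tshr+/+. The ratio was higher in each library labelled Tshr-/-, and since Nlrc5 was chosen for its difference, nothing further is read from it.

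The profile of each gene was also set against Nlrc5 by the root mean square (RMS) difference of log2 values centred on their mean over 6 libraries. A profile with no variation would differ from Nlrc5 by 0.32, and the median of the tested genes differed by 0.37. Psmb8 at 0.27, Tap1 at 0.29, Tapbp at 0.30 and Psmb9 at 0.31 were nearer to Nlrc5 than a flat profile. B2m at 0.34, Tap2 at 0.36, Psmb10 at 0.36, H2-K1 at 0.37 and H2-D1 at 0.38 were farther. Psmb8, the nearest member, ranked 849 of 10912 genes. The rank is a description over 6 libraries.

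The 5 genes of at least 5 FPKM most like Nlrc5 over the 6 libraries held no class I gene. The ubiquitin ligase gene Trim30a (RMS difference 0.11) had 32.99, 27.8 and 31.7 FPKM in Tshr-/-, against 18.4, 20.1 and 25.01 FPKM in Tshr+/+. The RNA-editing enzyme gene Adar (0.15) had 12.0, 12.4 and 12.2 FPKM in Tshr-/-, against 8.08, 8.603 and 10.1 FPKM in Tshr+/+. The other genes were the cofilin phosphatase gene Ssh2 (0.13), the granzyme gene Gzma (0.15) and the scaffold gene Kidins220 (0.15). Likeness to a gene chosen for its genotype difference selects genes with the same difference, so no genotype difference is read from these 5. Ranked by Pearson correlation over the 6 libraries instead, a pooled measure used for this ranking alone, 0 of the 5 were kept among the first 5, so the choice depends on the measure.

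Markers of T and NK cells, in which NLRC5 is best known, summed to 79.1 to 99.6 FPKM over 10 genes in Tshr-/- and 64.2 to 81.2 FPKM in Tshr+/+. Of the list, 4 genes reached 1 FPKM in a library, all of them tested, and 2 of 10 had separate groups with Tshr-/- higher. These were Cd3g, a T cell receptor component gene counted with 4, 5 and 2 fragments in Tshr-/- and 1, 1 and 1 in Tshr+/+, and Gzma. Cd3g was below the filter, so only Gzma can be set against the 3.23% of tested genes with this separation. Gzma is also named above for its likeness to Nlrc5, so nothing is read from its separation. Most of the sum came from the cytotoxic granule gene Nkg7, with 69.0 to 85.4 FPKM in Tshr-/- and 55.2 to 72.5 FPKM in Tshr+/+. Gzma, of cytotoxic granules, had 8.96, 5.74 and 8.29 FPKM in Tshr-/-, against 3.50, 5.16 and 4.25 FPKM in Tshr+/+. Among T cell receptor component genes, Cd3d stood between 1.12 and 2.99 FPKM in Tshr-/- and between 1.81 and 2.89 FPKM in Tshr+/+. Cd3e stood between 0 and 0.0175 FPKM in Tshr-/- and between 0 and 0.0444 FPKM in Tshr+/+, and Cd8a was at most 0.0743 FPKM in any library. The part of these cells in the Nlrc5 values was not tested.

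Tap1 and Psmb9, which share the promoter stretch printed above, had the most similar profiles of the 45 pairs among the 10 genes. Psmb9 stood at 0.720, 0.718 and 0.698 times Tap1 in Tshr-/-, against 0.669, 0.702 and 0.743 times Tap1 in Tshr+/+. The ratio of highest to lowest library was 1.11, whereas it was 1.58 for Tap1 and 1.70 for Psmb9 alone. The RMS difference between their profiles was 0.04, and Tap1 was the nearest of all tested genes to Psmb9. In the other direction, Bcorl1 (0.0408) was slightly nearer to Tap1 than Psmb9 was (0.0418), and Ethe1 (0.0421) came next. The median gene differed from Psmb9 by 0.30. The 212 bases that the models of Tap1 and Psmb9 share may carry fragments counted for either gene, and their part was not tested. Psmb8, the next gene along, stood at 0.886 to 1.07 times Tap1 in Tshr-/- and at 1.01 to 1.10 times Tap1 in Tshr+/+, and H2-K1 with B2m was the second most similar pair (RMS difference 0.09).

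**Figure D5:**
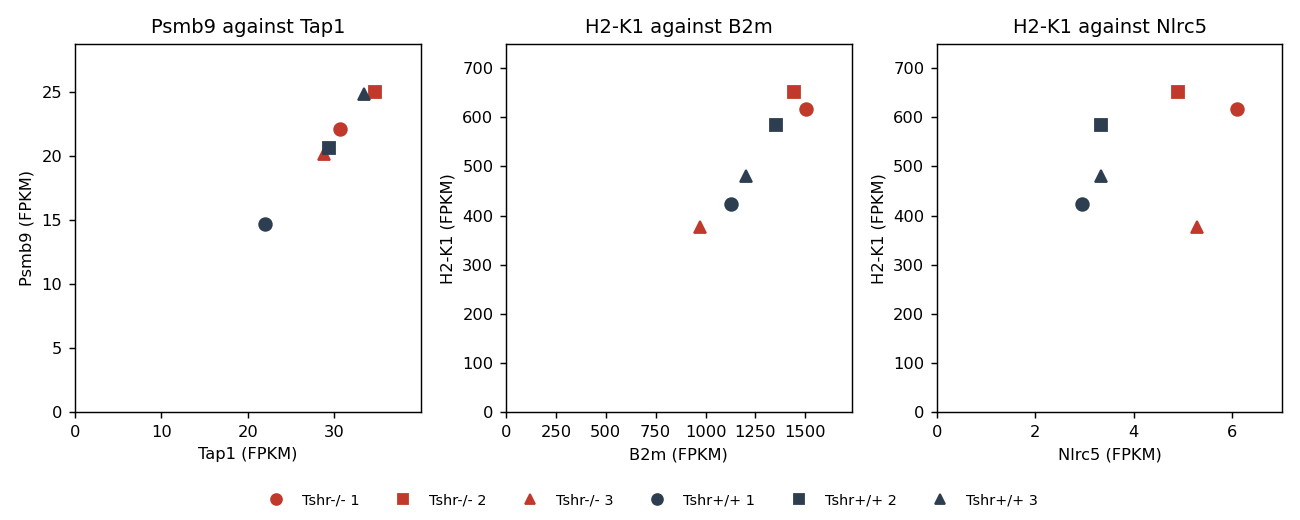
Points are the 6 libraries, with FPKM on both axes. Psmb9 against Tap1 and H2-K1 against B2m lie along rising lines with the genotypes mixed, while against Nlrc5 the genotypes stand apart and H2-K1 takes high and low values in each.

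The exchange of catalytic subunits was described as the mean log2(FPKM + 1) of Psmb8, Psmb9 and Psmb10 minus that of the constitutive subunit genes Psmb5, Psmb6 and Psmb7. This difference was -0.050, -0.0039 and -0.0095 in Tshr-/-, against -0.55, -0.21 and 0.11 in Tshr+/+. The Tshr-/- libraries were nearly equal and lay within the range of Tshr+/+. The means were -0.021 ± 0.025 in Tshr-/- and -0.22 ± 0.33 in Tshr+/+ (SD, n = 3 each). The difference of 0.20 depends on single Tshr+/+ libraries, being 0.029 without Tshr+/+ 1 and 0.36 without Tshr+/+ 3. Of the ratios between replacing and replaced subunit, that of Psmb8 over Psmb5 did not overlap, with 0.704, 0.763 and 0.614 in Tshr-/-, against 0.439, 0.594 and 0.589 in Tshr+/+. Psmb9 over Psmb6 and Psmb10 over Psmb7 overlapped. Among single genes, 6.77% had groups that did not overlap in either direction. No such share was computed over ratios of genes, so nothing is read from the separation of Psmb8 over Psmb5.

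The constitutive subunit gene Psmb5 had 46.6, 40.4 and 50.1 FPKM in Tshr-/-, against 54.8, 49.8 and 57.5 FPKM in Tshr+/+, with 1 Tshr-/- value above the lowest of Tshr+/+. Of 3 constitutive subunit genes, 0 of 3 lay above 0 in log2 fold change, and Psmb6 had one of -0.04 ± 0.12 (SE). Among 11 other genes of the proteasome core, 5 were above and 6 below 0, with a median of -0.001. Psma6 of the outer ring had lower values in every Tshr-/- library, at 71.2, 70.3 and 66.3 FPKM, against 74.8, 74.5 and 75.1 FPKM in Tshr+/+. Psma7, a further outer ring subunit gene, had a log2 fold change of 0.13 ± 0.11 (SE) with overlapping groups. Among 6 activator and assembly genes the median was -0.04. The assembly factor genes Pomp and Psmg1 stood at -0.17 ± 0.11 (SE) and -0.14 ± 0.15 (SE) on the log2 fold change scale, and the interferon-inducible activator subunit gene Psme1 averaged 57.9 ± 7.10 FPKM over the Tshr-/- libraries and 55.1 ± 3.60 FPKM over the Tshr+/+ libraries (SD, n = 3 each). None of these passed (limma adjusted p = 0.9997 for each).

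The other class I heavy chain genes of the H2 complex had 9 of 15 listed members tested, and 0 of 9 were called. All 9 lay above 0 in log2 fold change, against 47.1% of all tested genes, and their median was 0.19. Set against the Tshr+/+ mean, the list averaged 0.50, 0.61 and -0.12 on the log2 scale in Tshr-/- 1, 2 and 3, against -0.26, 0.09 and 0.16 in Tshr+/+, so Tshr-/- 3 lay within the Tshr+/+ values. H2-Q6, a non-classical heavy chain gene, had 96.4, 98.5 and 28.4 FPKM in Tshr-/-, against 24.8, 44.9 and 35.1 FPKM in Tshr+/+. H2-Q7, its neighbour, named after its values were seen, had 29.6, 27.7 and 9.52 FPKM in Tshr-/-, against 7.33, 13.6 and 14.4 FPKM in Tshr+/+. Both were high in the libraries labelled Tshr-/- 1 and 2 and within the Tshr+/+ range in Tshr-/- 3. H2-T24 had 40.1, 39.9 and 35.6 FPKM in Tshr-/-, against 18.0, 23.02 and 37.6 FPKM in Tshr+/+, with a log2 fold change of 0.60 ± 0.25 (SE). It did not pass (limma adjusted p = 0.9997), and Tshr+/+ 3 lay within the Tshr-/- values. The most abundant of the list, H2-T23, which encodes the Qa-1 molecule, averaged 92.6 ± 11.6 FPKM over the Tshr-/- libraries and 88.8 ± 9.18 FPKM over the Tshr+/+ libraries (SD, n = 3 each). H2-Q1, below the filter and named after its values were seen, was counted with 25, 19 and 40 fragments in Tshr-/- and with 8, 9 and 10 in Tshr+/+. H2-T9 was not analysed here.

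Of 3 tested class I-like genes outside the complex, 0 of 3 lay above 0 in log2 fold change. Cd1d1, which presents lipids, averaged 2.19 ± 0.986 FPKM over the Tshr-/- libraries and 2.91 ± 0.532 FPKM over the Tshr+/+ libraries (SD, n = 3 each). For Hfe, an iron regulator, the log2 fold change was -0.13 ± 0.21 (SE). The neonatal Fc receptor gene Fcgrt had one of -0.01 ± 0.16 (SE).

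Other factors of peptide trimming and loading had log2 fold changes above 0 in 11 of 11 genes, against 47.1% of all tested genes. Their median was 0.19 and 0 of 11 were called. Set against the Tshr+/+ mean, the list averaged 0.30, -0.055 and 0.32 on the log2 scale in Tshr-/- 1, 2 and 3, against 0.003, -0.054 and 0.051 in Tshr+/+. Tshr-/- 2 was thus the lowest of the 6 libraries. Lnpep, an aminopeptidase of endosomes that trims peptides for cross-presentation, had 19.8, 19.8 and 19.8 FPKM in Tshr-/-, against 15.7, 15.6 and 15.5 FPKM in Tshr+/+. Its groups were separate with Tshr-/- higher, as in 3.23% of tested genes, with SD of 0.0221 in Tshr-/- and 0.105 FPKM in Tshr+/+. Both SDs were smaller than the counting error of its fragments, at least 3647 per library, so nothing is read from the tightness. The log2 fold change of Lnpep was 0.33 ± 0.09 (SE), and it did not pass (limma adjusted p = 0.9997). The protease gene Ide averaged 5.88 ± 1.71 FPKM over the Tshr-/- libraries and 4.20 ± 1.199 FPKM over the Tshr+/+ libraries (SD, n = 3 each). The chaperone gene Hspa5 was the most abundant and overlapped between the genotypes, at 110 to 215 FPKM in Tshr-/- and 127 to 179 FPKM in Tshr+/+.

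Among the factors that recruit NLRC5, 5 of 8 tested genes had a value above 0 and 3 below, with a median of 0.04 and 0 of 8 called. Rfxap, a subunit of the RFX complex, had 9.98, 9.67 and 8.65 FPKM in Tshr-/-, against 11.6, 10.3 and 11.2 FPKM in Tshr+/+. Nfya, a subunit of NF-Y, had 12.4, 12.2 and 12.4 FPKM in Tshr-/-, against 11.0, 11.1 and 11.5 FPKM in Tshr+/+. The groups of both were separate, in opposite directions. The log2 fold change was -0.20 ± 0.10 (SE) for Rfxap and 0.13 ± 0.09 (SE) for Nfya. The DNA-binding RFX subunit gene Rfx5, named after its values were seen, averaged 1.56 ± 0.169 FPKM over the Tshr-/- libraries and 1.41 ± 0.101 FPKM over the Tshr+/+ libraries (SD, n = 3 each). Atf1 was the most abundant at 30.5 ± 1.49 FPKM in Tshr-/- and 32.7 ± 3.72 FPKM in Tshr+/+. Ciita, the class II counterpart of Nlrc5, fell below the filter, with 0.239 to 0.755 FPKM in Tshr-/- and 0.154 to 0.414 FPKM in Tshr+/+.

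Upstream of Nlrc5, 9 genes of interferon gamma signalling were tested, of which 6 lay above and 3 below 0 in log2 fold change. Their median was 0.04 and 0 of 9 were called. The receptor chain gene Ifngr2 had 11.4, 15.6 and 12.6 FPKM in Tshr-/-, against 15.6, 17.9 and 18.9 FPKM in Tshr+/+, with a log2 fold change of -0.38 ± 0.14 (SE, limma adjusted p = 0.9997). The other receptor chain gene, Ifngr1, averaged 70.1 ± 10.52 FPKM over the Tshr-/- libraries and 74.5 ± 9.58 FPKM over the Tshr+/+ libraries (SD, n = 3 each). For the regulator gene Irf2 the log2 fold change was 0.27 ± 0.16 (SE). The cytokine gene Ifng fell below the filter, with 18, 9 and 14 fragments in Tshr-/-, against 5, 0 and 20 in Tshr+/+.

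A list of 20 interferon response genes, whose higher values in Tshr-/- were known before the class I genes were chosen, had a median log2 fold change of 0.43 with 0 of 20 called. In 7 of the 20 the groups were separate with Tshr-/- higher, against 3.23% of all tested genes. Slfn5, a Schlafen family gene, had 11.9, 9.98 and 9.99 FPKM in Tshr-/-, against 5.01, 4.75 and 7.50 FPKM in Tshr+/+. Ifit3, of the IFIT antiviral family, had 14.6, 14.7 and 9.38 FPKM in Tshr-/-, against 5.55, 6.30 and 9.08 FPKM in Tshr+/+. The groups of both were separate, Ifit3 by the narrow gap between Tshr-/- 3 and Tshr+/+ 3. Oas3, an antiviral RNA sensor and the most abundant of the list, overlapped, with 57.8, 51.4 and 38.2 FPKM in Tshr-/-, against 31.7, 43.9 and 30.9 FPKM in Tshr+/+. Set against its Tshr+/+ mean, the list averaged 0.69, 0.61 and 0.24 on the log2 scale in Tshr-/- 1, 2 and 3, against -0.23, 0.12 and 0.11 in Tshr+/+. That order put Tshr-/- 3 last among the Tshr-/- libraries, whereas for Nlrc5 that library was second of the 6. The median log2 fold change of the 9 class I genes, 0.07, lay below that of this list, a difference given with no test.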

How the data were processed

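The authors deposited FPKM values per gene for 6 libraries, made from total RNA with a SMARTer mRNA kit, per the labels' protocols. Per the submitters' processing notes the builds were GRCm38 and mm10. Aligner, counter, strand use: not given in the sources used here. Columns headed WT and HO were read as Tshr+/+ and Tshr-/-, with the number of the title. Multiplied by gene length, 100% of the deposited FPKM came out as whole fragments to within 0.01 of a fragment. Titles number the mice, and p-values measure the spread between these libraries.

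Genes that reached 1 FPKM in 3 or more libraries were tested with limma 3.58.1 in R 4.3.3 on log2(FPKM + 1), with a variance trend, two-sided, Benjamini-Hochberg over all tested genes, threshold 0.05. A fold change on this scale understates that of low genes. A second model added Nlrc5, centred within genotype. Both were tested on simulated data. For the second model the simulated Nlrc5 had a higher level, a wider range within genotype and no counting error. That simulation therefore does not show how the slope behaves at the Nlrc5 values of these libraries. Deviations of same-numbered libraries from their genotype means correlated with r of 0.24, 0.26 and 0.47 over genes. Tshr-/- 1 correlated more with Tshr+/+ 2 (0.34). Every same-number value was over 0.1, so a model with the number as a block was run as an alternative. The titles state no pairing, and the main fits did not use the numbers. Other alternatives were pseudocounts, filters, scalings, robust moderation, array weights, voom, and libraries left out. Leaving out Tshr-/- 1 and 2, or both libraries numbered 3, was chosen after seeing the data.

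Named genes were the 10 genes; from each list, the most abundant and the 2 of smallest p; and the 5 most like Nlrc5. The members and lists were chosen with earlier results of these data known. Windows around starts are from RefSeq (GRCm38.p6), searched on both strands. Results for 1 listed gene and 1 motif are not reported here.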

Additional observations from a re-analysis of the deposited data

How the results depend on the processing

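No alternative called a gene by its slope on Nlrc5, and the replicate block changed no call. The counts of genes called by genotype, 0 higher and 0 lower, stayed at 0 under every alternative but 3. Leaving out 1 library at a time gave 0 to 2 higher and 0 to 0 lower genes, the 2 without Tshr-/- 3. Array weights called 13 higher and 11 lower, Nlrc5 among them, and leaving out both libraries numbered 3, chosen after seeing the data, called 10 higher and 8 lower. Nlrc5 kept a log2 fold change of 0.54 to 0.80 in all 18 alternatives that tested it; a minimum mean of 5 FPKM removed it. Ranked by Pearson correlation, 0 of the 5 genes most like Nlrc5 were kept. Slopes that turned were those of H2-K1 (-0.38), B2m (-0.018) and Tapbp (0.17) with equal totals, Tap2 (0.031) and Tapbp (0.073) with quantile scaling, H2-K1 (-0.029) and Tapbp (0.13) with voom, H2-D1 (0.34), Tap2 (0.22) and Tapbp (0.00023) with the replicate block, and H2-D1 (0.060), Tap2 (0.012) and Tapbp (0.10) with no genotype term. Leaving out 1 library gave slopes of -0.37 to 3.26 for H2-K1, -0.55 to 2.56 for B2m, -1.22 to 1.74 for H2-D1, -0.50 to 2.02 for Tap1, -0.93 to 1.2 for Tap2, -0.81 to 0.74 for Tapbp and -0.45 to 2.46 for Psmb9; the cause was not tested. Depth limits Nlrc5 most, with 425 fragments in its lowest library.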

Other observations

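The X2 and Y box cores at a gap of 20 bases occurred in windows of 27 genes, class I genes included, of which 17 were tested. Of these 17, 7 lay above 0 in log2 fold change, H2-K1, H2-D1, B2m and H2-M3 among them. Their median was -0.01, and groups were separate in 0 of them. Slopes on Nlrc5 were above 0 in 9 of them, with a median of 0.19. Besides H2-K1, H2-D1, B2m and H2-M3, the tested genes included Trim26, which lies in the same region of chromosome 17, with a log2 fold change of 0.09 ± 0.11 (SE), and the clock gene Per1, with -0.06 ± 0.33 (SE); both were named after their values were seen. At gaps of 15 to 19 and 22 to 25 bases the same pair stood in 8 to 12 windows each, against 31 windows at 20 bases and 23 at 21. These are counts of letters, not of bound sites.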
